A study of Sus scrofa domesticus with 150 samples.

Results

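The cytokines of the interleukin-6 family and their STAT3 response were followed through the healing of porcine skin wounds. Rows of the gene count table were chosen by symbol, as IL6, IL11, LIF, OSM, OSMR, IL6ST, SOCS3 or STAT3. These 8 symbols gave 9 of the 30461 rows of the table, since STAT3 had a long and a short row. Rows were picked by symbol alone, but the symbols were chosen with earlier results of these data known. The samples came from 6 female domestic pigs (Sus scrofa domesticus, Yorkshire mix), each with 12 circular full-thickness wounds on the back that were covered with dressings and given no other treatment. Skin excised on day 0 served as the baseline, with 6 samples. Each of 72 wounds then gave 1 biopsy of the wound edge and 1 of the wound center on 1 of 14 days between day 1 and day 21. The 29 combinations of day and location are called states here, 21 with 6 samples and 8 with 3 samples (days 15, 16, 19 and 21). Days 1, 3, 5, 7, 11, 15 and 21 came from animals 1 to 3, and days 2, 4, 6, 9, 13, 16 and 19 from animals 4 to 6, so a step between such neighboring days and a difference between animals cannot be told apart. On days with 6 samples per location the 2 wounds of an animal share that animal.

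Interleukin-6, interleukin-11, leukemia inhibitory factor (LIF) and oncostatin M (OSM) are secreted cytokines that signal through the shared receptor chain gp130, the product of IL6ST. Receptor engagement activates Janus kinases, which phosphorylate the transcription factor STAT3, and STAT3 induces SOCS3, an inhibitor that binds the receptor complex and dampens the signal. In skin these cytokines are made by keratinocytes, fibroblasts and immune cells after injury. Messenger RNA levels were measured here, not cytokine protein or phosphorylated STAT3.

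Levels are given as reads of a gene relative to all counted reads of its library (CPM), and on the log2(1 + CPM) scale where state means are compared. Libraries held between 13133379 and 24895572 counted reads, so that 3 reads, taken as the limit of detection, correspond to 0.121 to 0.228 CPM. By the correlation with their replicates 8 libraries stood apart, 1 of day 0 skin, 2 of the edge and 5 of the center. In 3 libraries the keratin gene KRT10, a marker of the upper epidermis, went against the labeled location. Replicate 6 of the day 3 edge held 8.88 CPM of KRT10, whereas the other edge samples of that day held 4198 to 18150 CPM. Replicate 4 of the day 3 center held 10630 CPM, against 5.77 to 682 CPM in the others, and replicate 5 of the day 1 center 6256 CPM, against 44.8 to 135 CPM. Without replicate 5 of the day 1 center 1 of the 9 rows, OSM, overlapped between edge and center on that day, against 7 with it. Without the other 2 libraries all 9 rows overlapped between the locations on day 3, as they did with them. The share of all genes that overlapped with and without these libraries is not given here, so these counts show nothing particular to the family. Tests without replicate 5 leave it out of both groups compared. By edgeR the day 1 center then exceeded day 0 by 3.54 for LIF and 1.22 for STAT3 on the log2 scale (adjusted p = 0.000887 and 9.7e-07). The differences of IL6 and IL11 were 7.78 and 3.75. Both genes passed the filter on low counts through the wound samples, so these 2 differences add no support.

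The rows lay on contigs of the assembly used for the deposited table, whose name is not given in the sources used here. LIF (contig LUXX01077477.1, bases 3335244 to 3352447, minus strand) and OSM (bases 3357445 to 3380380 of the same contig and strand) were neighbors, 4998 bases apart. OSM overlapped a CASTOR1 row on the same strand that reached 58 counts in its highest sample, and the protein match listed for the OSM row was CASTOR1 as well. SOCS3 (LUXX01052731.1, 2855048 to 2858131, minus strand) overlapped TK1 on the same strand, which reached 2230 counts. IL6 (LUXX01085978.1, 2085709 to 2090636, plus strand) overlapped RAPGEF5, with up to 1036 counts, and OSMR (LUXX01024692.1, 3802343 to 3862596, plus strand) overlapped LIFR, with up to 2961 counts, both on the opposite strand. The IL6 row held 29 counts in the 6 day 0 samples together. Whether strand was used in counting is not given in the sources used here, so reads of such overlapping genes could be shared. IL11 (LUXX01083171.1, 605178 to 608866, plus strand), IL6ST (LUXX01054184.1, 1427351 to 1518344, plus strand) and both STAT3 rows overlapped no other gene. The long STAT3 row (LUXX01049411.1, 866189 to 888733, minus strand) had a length of 4202 bases and the short one (LUXX01082377.1, 690247 to 725780, plus strand) 688 bases. Reads of the gene could be divided between them, and both are reported.

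Per length, in FPKM (CPM divided by gene length, with a factor for each library), day 0 skin was dominated by the signaling genes, with medians of 40.2 FPKM for STAT3, 14.8 for IL6ST, 6.48 for SOCS3 and 4.27 for OSMR. The cytokines lay below 1 FPKM, with 0.543 for LIF, 0.263 for IL11, 0.145 for IL6 and 0.0789 for OSM. In the center on day 1 SOCS3 led at a median of 155 FPKM (52.8 to 326), ahead of STAT3 at 85.6 FPKM (56.2 to 101), although their ranges overlapped. On day 6 IL11 led the center at 305 FPKM (124 to 421), followed by SOCS3 at 83.1 FPKM (56.0 to 211) with an overlapping range. IL11 had been the lowest of the 9 rows in the center on day 1, at 2.68 FPKM. By day 21 STAT3, its short row and IL6ST again held the highest levels in the center, with STAT3 at 38.1 FPKM and IL6ST at 15.5 FPKM, and the cytokines lay between 0.401 and 1.92 FPKM.

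**Figure D1:**
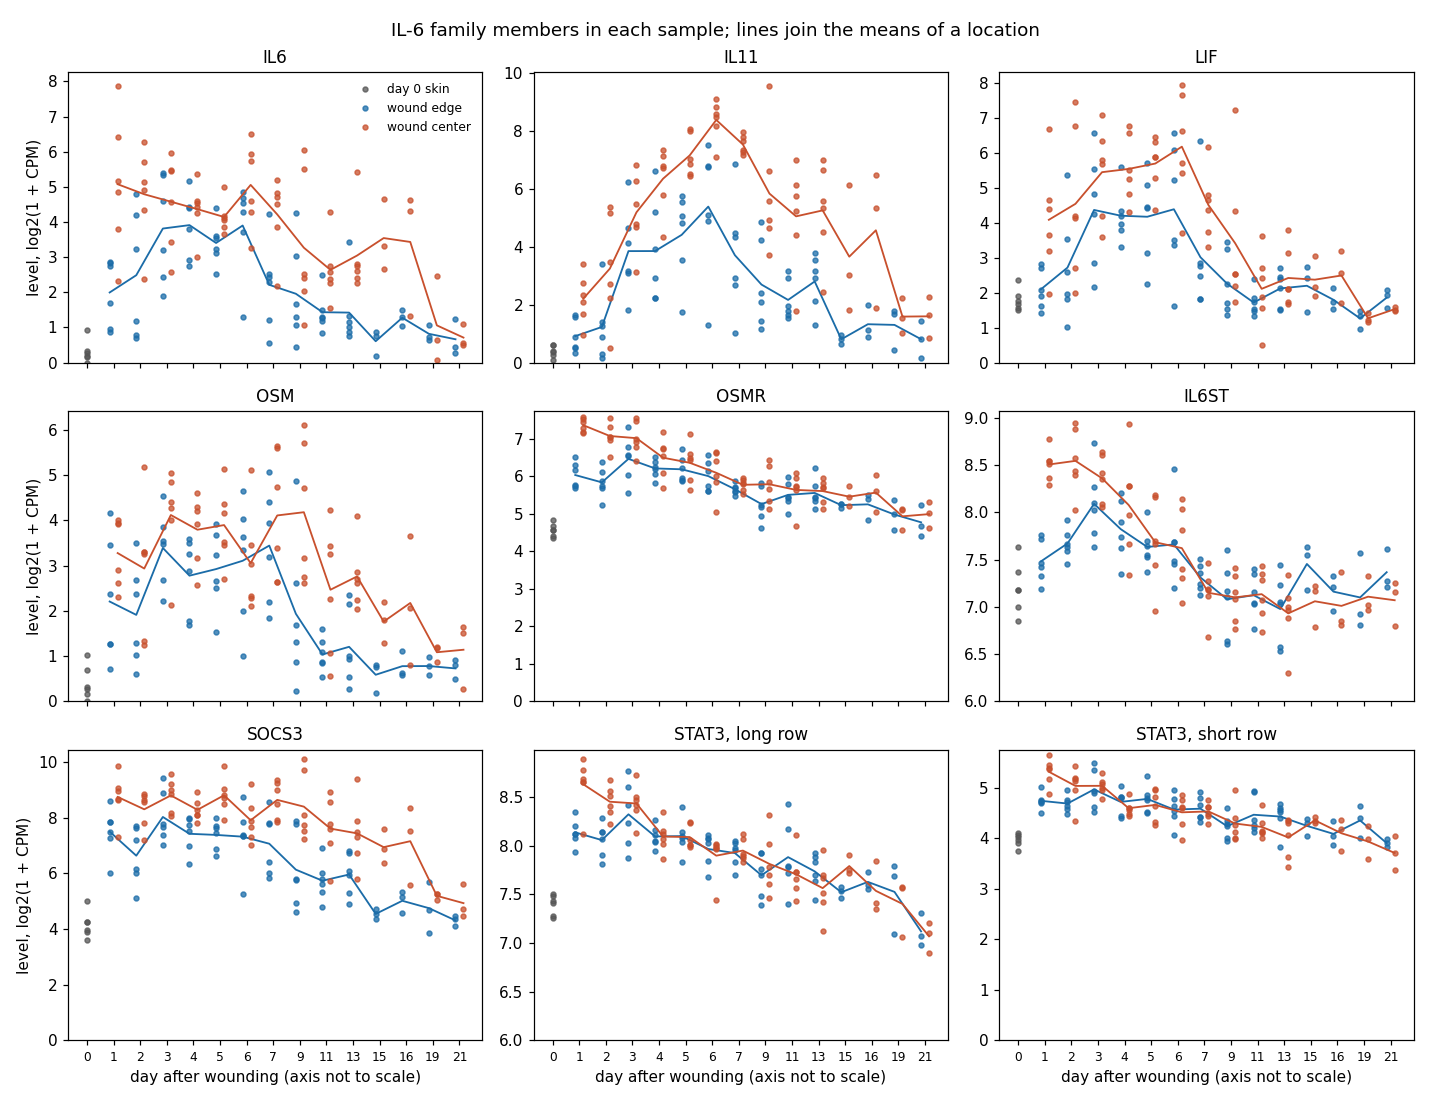
Level of each of the 9 rows as log2(1 + CPM) against the day after wounding, with points for single samples, lines through the means of each location and day 0 skin at the left. The axes of IL6ST and the long STAT3 row do not start at 0. In the center the mean of IL11 peaked on day 6 at 8.38, and SOCS3 lay higher there than at the edge on every day.

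**Figure D2:**
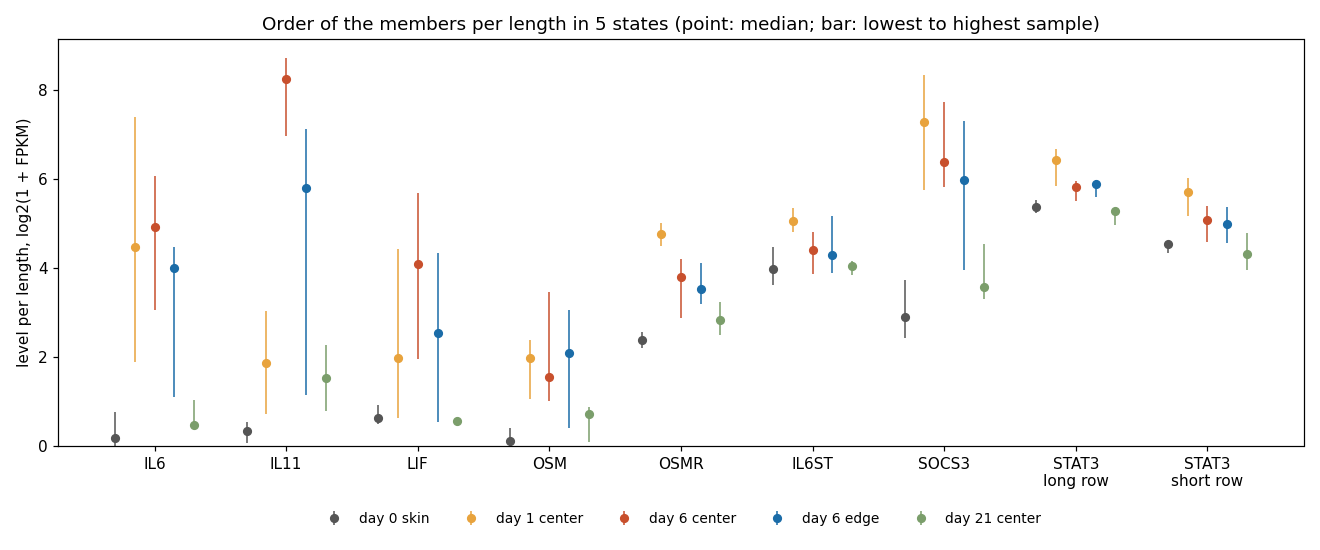
Level per length of each row, as log2(1 + FPKM), in 5 states (day 0 skin, the center on days 1, 6 and 21 and the edge on day 6), with points for medians and bars from the lowest to the highest sample. IL11 moved from the lowest row in the center on day 1 (median 2.68 FPKM) to the highest on day 6 (median 305 FPKM), whereas both STAT3 rows and IL6ST kept to a narrower range.

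Edge and center were compared within each day by the quasi-likelihood test of edgeR, with p-values adjusted after Benjamini and Hochberg for all tested genes and 0.05 as the threshold, and all adjusted p-values below come from this tool. The location differences of the family lay almost entirely toward the center. Of 125 tests of a row on a day 29 passed, 28 with the center higher and 1, the short STAT3 row on day 13, with the edge higher. The largest number was that of day 1, with 8 of 9 rows lower at the edge, when 22.6% of all tested genes were lower there and 46.6% differed in either direction. Day 2 had 4 rows lower at the edge (17.7% of all genes), day 5 had 2 (16.8%), day 7 had 3 (17.1%), day 9 had 2 (14.3%), day 11 had 4 (22.9%) and day 15 had 2 (9.81%). Day 13 had 3 rows lower (11.8%) and 1 higher (16.6%). No row passed on days 3, 4, 6, 16, 19 or 21, when 0%, 11.4%, 3.92%, 5.87%, 0% and 0% of all genes were lower at the edge. Outside day 1 the number of rows lay within 3 of what the share of all genes gives for 9 rows. The calls of IL11 on day 1, IL6 on days 7 and 15 and OSM on day 13 add no support. These genes passed the filter on low counts through the center there. The median edge minus center difference of the rows on the log2 scale was -1.50 on day 2 and -2.12 on day 9. With the wound as a block, which pairs the edge and center sample of a wound, 45 tests passed instead of 29, and such calls are given below by gene. With the counts of an animal summed 7 of the 29 calls were lost. On day 3, where edgeR called 0 of 14581 genes (1667 at an unadjusted p below 0.05, and 1 gene with DESeq2), leaving out the libraries that stood apart gave 18.1% of all genes and still no row of the family. On day 19 edgeR called 0 of 14413 genes as well (479 at an unadjusted p below 0.05, and 9 genes with DESeq2). On day 1 all 8 calls stood without replicate 5, whose center sample went against its label. In biopsies, fewer cells of a type and less RNA per cell cannot be told apart, which holds for every difference below.

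**Figure D3:**
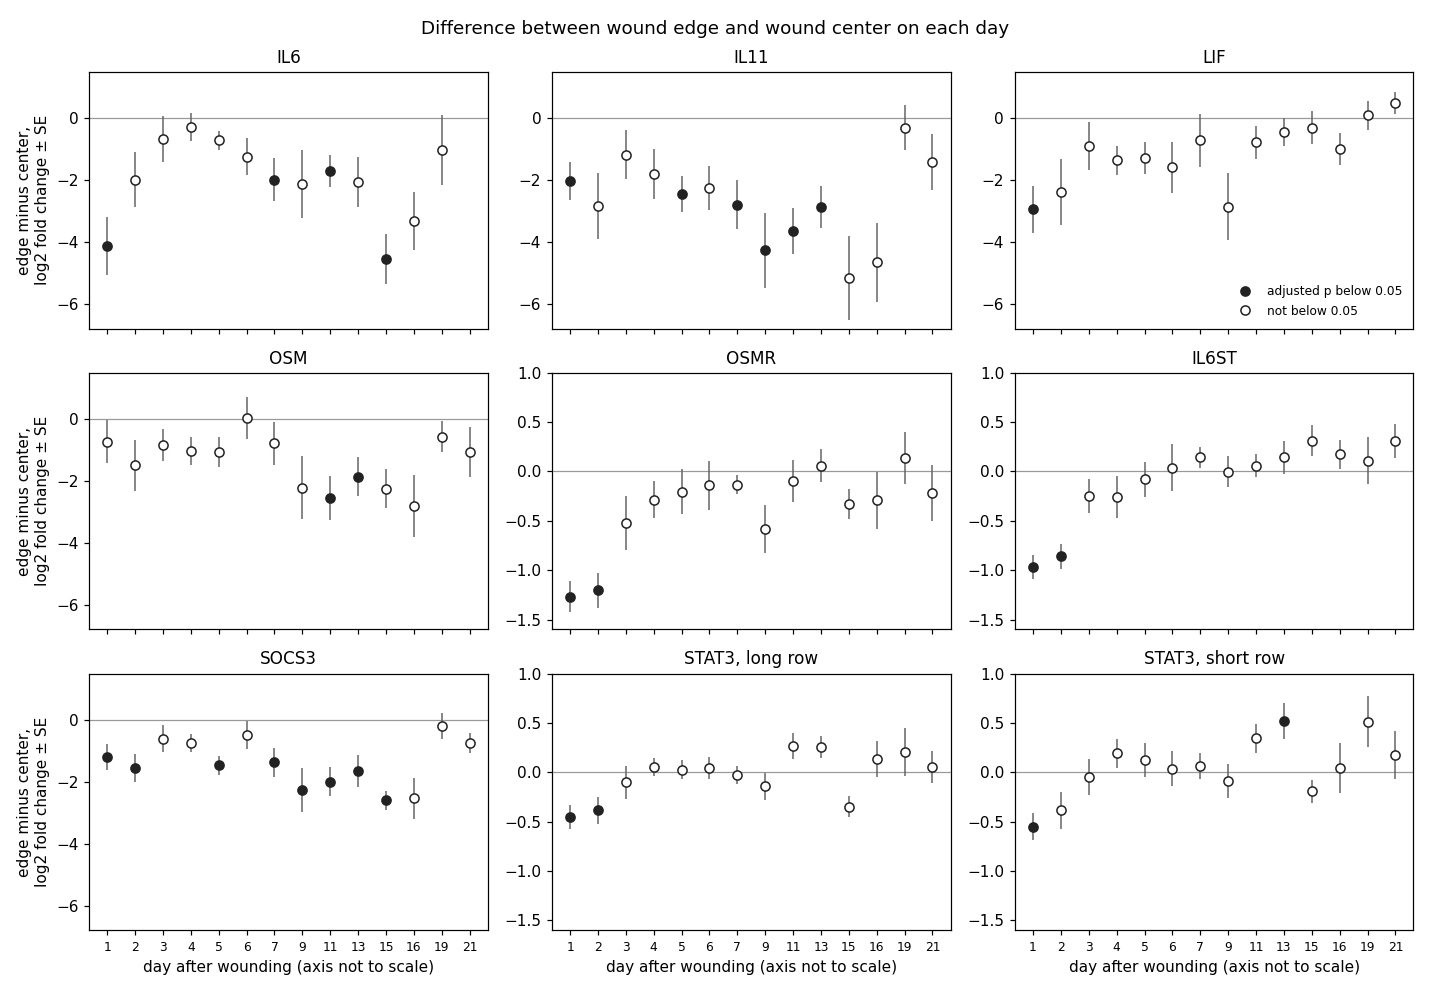
Edge minus center difference (log2 fold change of edgeR, error bars 1 SE) of each row against the day after wounding, with filled points for an adjusted p below 0.05 and a narrower vertical axis for OSMR, IL6ST and both STAT3 rows. IL6 was not tested on day 21. Most values of the 4 cytokines and SOCS3 lie below 0, that is, higher in the center, with the lowest for IL11 (-5.16 on day 15, not past the threshold), whereas those of IL6ST and both STAT3 rows lie on both sides of 0 after day 3.

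Over all wound samples, with a mean per state, 6 of 9 rows were lower at the edge by edgeR, where 36.8% of all genes were lower. IL11 differed most, by -2.71 ± 0.29 (SE, adjusted p = 4.2e-15), followed by IL6 at -1.87 ± 0.26 (adjusted p = 2.0e-10), SOCS3 at -1.41 ± 0.15 (adjusted p = 6.7e-15), OSM at -1.40 ± 0.24 (adjusted p = 9.2e-08), LIF at -1.16 ± 0.25 (adjusted p = 1.7e-05) and OSMR at -0.39 ± 0.07 (adjusted p = 1.7e-07). IL6ST at -0.11 ± 0.05 missed the threshold (adjusted p = 0.0555) and passed with the wound as a block (adjusted p = 0.0292). The long STAT3 row at -0.05 ± 0.04 and the short one at 0.03 ± 0.05 did not pass. Within single wounds the center sample was higher in 69 of 72 wounds for SOCS3, 68 for IL11, 62 for IL6, 59 for OSM, 58 for LIF and 55 for OSMR, and in 42 for IL6ST and 37 for STAT3. Averaged per animal, the center was higher in 6 of 6 animals for the 4 cytokines, OSMR, IL6ST and SOCS3. The size of the location difference varied between days for OSMR (adjusted p = 0.00141), IL6ST (adjusted p = 1.5e-05), STAT3 (adjusted p = 0.00167) and its short row (adjusted p = 0.00594) in an F test of the same edgeR fit, 4 of 9 rows where 30.7% of all genes varied. Without replicate 3 OSMR missed this threshold (adjusted p = 0.0842), without replicate 2 STAT3 did (adjusted p = 0.058), and the short row did without either (adjusted p = 0.139 and 0.0635). No such variation was called for SOCS3 (adjusted p = 0.141) or IL6 (adjusted p = 0.0795), both of which passed with the wound as a block (adjusted p = 0.0104 and 0.0212).

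**Figure D4:**
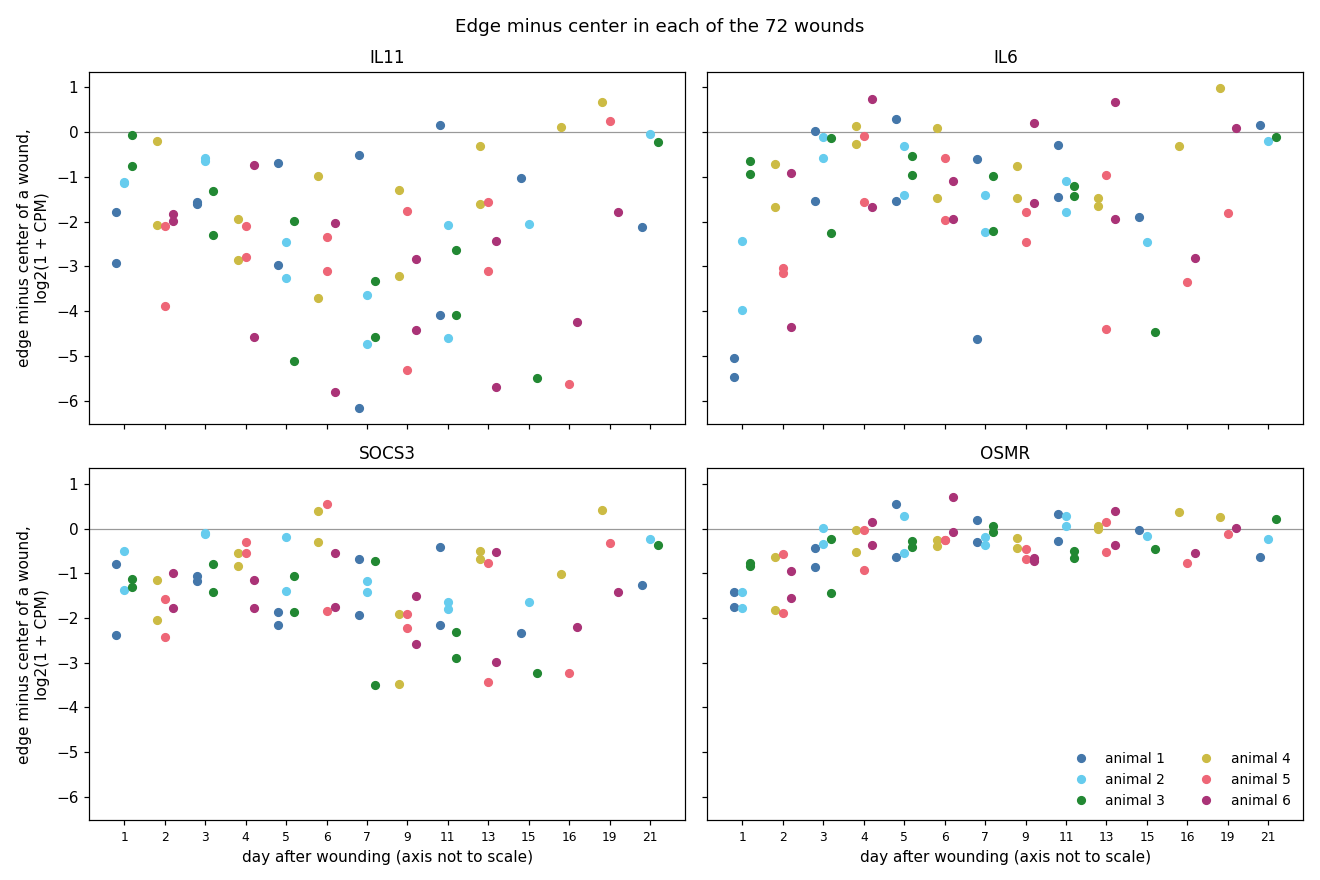
Edge minus center difference of IL11, IL6, SOCS3 and OSMR within each of the 72 wounds, in log2(1 + CPM), against the day after wounding, with 1 point per wound colored by animal. Points below 0 are wounds with a higher center level, 69 of 72 for SOCS3, 68 for IL11, 62 for IL6 and 55 for OSMR, and those of OSMR lie furthest below 0 on days 1 and 2.

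Against day 0 skin each day and location was fitted alone, and these 28 comparisons share the same 6 day 0 samples. The day 0 samples were whole excised skin and the wound samples biopsies. A difference in the tissue taken and one of wounding cannot be told apart. Every call of the family lay above day 0. In the center 9 rows were higher on days 1, 3 and 4, when 33%, 30.3% and 32.8% of all genes were higher, 8 on days 2, 5, 6, 7 and 9 (30.0%, 35.3%, 34.2%, 35.3% and 31.1%), 7 on days 11, 13, 15 and 16 (31.2%, 30.1%, 26.1% and 26.8%) and 3 on days 19 and 21 (21.4% and 21.0%). At the edge 6 rows were higher on day 1 (26.4% of all genes), 7 on day 2 (23.0%), 9 on days 3 and 4 (27.3% and 25.0%), 8 on days 5, 6 and 7 (29.3%, 27.2% and 28.1%) and 7 on days 9, 11 and 13 (23.5%, 23.1% and 24.6%). The late edge samples had 1 row higher on day 15 (10.2%), 5 on day 16 (15.0%), and 3 and 0 rows on days 19 and 21 (18.0% and 15.3%). IL6, IL11 and OSM had few reads in day 0 skin and passed the filter on low counts through the wound samples, so their calls add no support to these counts. For these 3 genes the ratio of summed counts per summed library size is given with its exact 95% interval, which covers counting error only.

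IL6, the founding cytokine of the family, rose early. Day 0 skin held 0 to 0.914 CPM with a median of 0.174 CPM. In the center on day 1 the lowest, median and highest samples held 4.03, 31.5 and 234 CPM, and at the edge 0.841, 3.97 and 6.28 CPM. All center samples of day 1 lay above day 0. Edge and center overlapped through replicate 5 of the center alone, whose KRT10 went against its label, and the other 5 center samples held 12.9 CPM or more. The center level was 233 times that of day 0 (162 to 349), and the edge level 13.8 times (9.41 to 20.8). Single libraries moved these ratios by more than the counting interval. Without replicate 2 of the center the first was 124, and without replicate 2 of day 0 skin, which held the most IL6 reads there, the ratios were 437 and 25.8. The median center level was still 32.8 CPM on day 3 and 37.9 CPM on day 6, then fell to 4.55 CPM on day 9 and 0.471 CPM on day 21. The 3 center samples held 5.29, 8.90 and 24.4 CPM on day 15 and 1.52, 18.9 and 23.9 CPM on day 16, against edge values of 0.141 to 0.817 and 1.04 to 1.83 CPM. On day 15 the ranges of edge and center did not overlap, and on day 16 they did. On day 21 both locations overlapped with day 0, and the center ratio was 2.50 (1.49 to 4.23), with 1.66 without center replicate 1 and 4.69 without day 0 replicate 2.

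In the edgeR fit IL6 was lower at the edge on day 1 by -4.13 ± 0.94 on the log2 scale (adjusted p = 0.00378), and this call stood with any replicate number left out. It was also called lower at the edge on day 7 (-1.99 ± 0.69, adjusted p = 0.0387), day 11 (-1.70 ± 0.52, adjusted p = 0.0194) and day 15 (-4.55 ± 0.81, adjusted p = 0.0225). Day 7 lost its call without replicate 1, 3, 4 or 5 (adjusted p up to 0.114), day 11 without 2, 4 or 5 (up to 0.0632) and day 15 without any of its 3 (up to 0.17), the last also with the wound as a block. The difference stayed between -2.74 and -1.55 on day 7, -1.77 and -1.52 on day 11 and -5.18 and -3.31 on day 15 in these fits, and on day 15 they had 2 samples per location. With that block IL6 was in addition lower at the edge on days 2, 5, 6 and 9, by -2.69, -0.79, -1.25 and -1.76 (adjusted p = 0.0103, 0.0317, 0.0323 and 0.0114). Day 5 of the same animals did not differ by the test from day 1 in the center (-1.84 ± 0.75, adjusted p = 0.0787).

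IL11, which is known for its action on stromal cells, rose later than IL6 and further. Its day 0 samples held 0.0637 to 0.514 CPM with a median of 0.307 CPM. On day 1 the center held 0.935, 3.65 and 9.68 CPM (lowest, median, highest) and the edge 0.246, 0.659 and 2.12 CPM. By day 6 the center held 137, 371 and 544 CPM and the edge 1.48, 69.9 and 180.5 CPM. Every center sample of day 6 lay above every day 0 sample by a wide margin, at 1098 times the summed level (793 to 1568), against 12.6 times (8.94 to 18.2) on day 1. Center samples were even in level on day 7, with a median of 180.0 CPM and a highest sample of 251 CPM, while the edge ranged from 1.02 to 114 CPM without overlap. On day 9 the center had a median of 38.1 CPM and a highest sample of 757 CPM, and that sample, replicate 3 of animal 5, was the highest of all 150 samples for IL11 and for SOCS3. Center medians were 44.6 CPM on day 11, 43.4 CPM on day 13, 7.05 CPM on day 15 and 39.6 CPM on day 16, when the 3 samples held 2.66, 39.6 and 88.7 CPM. The 3 samples of day 21, with 0.809, 2.15 and 3.85 CPM, lay above day 0, at 6.95 times the summed level (4.76 to 10.4) and 4.60 times without replicate 1.

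The center exceeded the edge for IL11 by edgeR on days 1, 5, 7, 9, 11 and 13. The difference was -2.46 ± 0.58 on day 5 (adjusted p = 0.00466), -3.64 ± 0.73 on day 11 (adjusted p = 0.00204) and -2.87 ± 0.69 on day 13 (adjusted p = 0.0079), and these 3 calls held with each replicate number left out. Day 1 (-2.04 ± 0.62, adjusted p = 0.0171) lost its call without replicate 2 (-1.47, adjusted p = 0.0839). Day 7 (-2.79 ± 0.80, adjusted p = 0.0153) lost it without replicate 3, 4 or 5 (adjusted p 0.0506 to 0.0581). Day 9 rested on the replicate named above, since the difference was -4.26 ± 1.21 with it (adjusted p = 0.0173) and -2.45 without it (adjusted p = 0.0578). With the wound as a block days 2, 4 and 6 passed as well, at -3.02, -2.53 and -2.96 (adjusted p = 0.00218, 0.00184 and 0.0134). Within wounds the center was higher in every wound of days 1 to 9. In the same animals IL11 rose from day 1 to day 5 by 5.32 ± 0.55 in the center (adjusted p = 2.8e-05) and by 4.88 ± 0.74 at the edge (adjusted p = 0.00122), and from day 2 to day 6 by 4.59 ± 0.84 and 5.19 ± 1.06 (adjusted p = 0.00269 and 0.00479). All 4 rises held with each replicate number left out. The lowest samples held 4 counts at the day 1 edge, 2 at the day 2 edge and 8 in the day 2 center. In the comparisons from these states IL11 passed the filter on low counts through the later day, so those calls add no support. Between the locations IL11 passed the filter through the center on day 1, so that call adds none either. On day 2 it passed only through both locations together.

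LIF, which shares gp130 and a receptor chain with OSM, had a measurable level in unwounded skin, with 1.83 to 4.17 CPM and a median of 2.30 CPM on day 0. In the center the median rose to 15.8 CPM on day 1 (2.92 to 103), 58.4 CPM on day 5 (19.7 to 87.1) and 74.8 CPM on day 6 (12.04 to 248). Center samples lay above all day 0 samples on days 3 to 7 and overlapped with them on days 1, 2 and 9. The overlap of day 1 came from replicate 5 alone, the others holding 8.17 CPM or more, above every edge and day 0 sample. Tested with edgeR, the center exceeded day 0 by 3.33 ± 0.74 on day 1 (adjusted p = 0.00169) and by 5.37 ± 0.65 on day 6 (adjusted p = 9.2e-06). With the animal as a block day 6 held (adjusted p = 0.0036), while day 1 at 2.43 ± 0.88 (adjusted p = 0.0502), day 2 (adjusted p = 0.0684) and day 9 (adjusted p = 0.229) did not pass. At the edge LIF on day 1 (median 3.01 CPM) did not pass against day 0 (0.39 ± 0.33, adjusted p = 0.347), and on day 6 it exceeded day 0 by 3.77 ± 0.73 (adjusted p = 0.00065). The edge was lower than the center on day 1 by -2.95 ± 0.75 (adjusted p = 0.00683), a difference between -3.33 and -1.81 with each replicate number left out. No other day passed without the wound as a block, and days 2, 4, 5, 6 and 7 passed with it, at -1.98, -1.31, -1.51, -1.90 and -1.69 (adjusted p = 0.0338, 0.044, 0.0312, 0.00394 and 0.00585). LIF then declined in the same animals. From day 5 to day 11 it fell by 3.59 ± 0.57 on the log2 scale in the center (adjusted p = 0.000983) and by 3.06 ± 0.54 at the edge (adjusted p = 0.00111). The lowest center sample of day 11 held 6 counts. LIF passed the filter on low counts there through day 5, so the fall in the center adds no support. From day 6 to day 13 it fell by 4.27 ± 0.71 in the center (adjusted p = 0.00556) and by 3.17 ± 0.73 at the edge (adjusted p = 0.0134), the last lost without replicate 3 or 6 (adjusted p up to 0.0703). On day 19 the 3 samples of each location (0.964 to 1.78 CPM at the edge, 1.22 to 1.68 CPM in the center) lay below every day 0 sample, though the differences of -0.56 ± 0.37 and -0.65 ± 0.35 did not pass.

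OSM, a cytokine of myeloid and T cells, had the lowest level per length of the 9 rows in day 0 skin. Day 0 skin held 0 to 1.03 CPM with a median of 0.233 CPM. The center held a median of 10.3 CPM on day 1 (3.92 to 15.0), 19.3 CPM on day 3 (3.40 to 32.1) and 16.7 CPM on day 9 (5.17 to 68.5), and 5.34 CPM on day 13 (3.12 to 16.1). On these 4 days all center samples lay above day 0, whereas on day 11 (0.478 to 17.8 CPM) they overlapped with it. The highest ratio to day 0 was that of the day 9 center, at 74.6 (54.9 to 104), and the day 21 center had a ratio of 3.64 (2.45 to 5.47). Of the 3077 counts of the day 9 center 907 and 1360 came from the 2 wounds of animal 5. Of the 41 counts of day 0 skin 18 came from replicate 2, a library that stood apart. At the edge the median was 11.3 CPM on day 7 (2.61 to 32.9) and 0.973 CPM on day 11 (0.448 to 2.03). By the same edgeR test the edge was lower on day 11 by -2.54 ± 0.71 (adjusted p = 0.0124) and on day 13 by -1.86 ± 0.63 (adjusted p = 0.0427). With the wound as a block days 2, 4 and 9 passed too, at -1.32, -1.08 and -2.70 (adjusted p = 0.0474, 0.0211 and 0.00877). The call of day 11 was lost without replicate 2 (adjusted p = 0.0537) and that of day 13 without replicate 1, 3, 5 or 6 (adjusted p up to 0.174). On day 1 the location difference of OSM was the only one of the 9 that did not pass (-0.73 ± 0.69, adjusted p = 0.411), and its edge reached 16.8 CPM, above the highest center sample. From day 5 to day 11 OSM fell by 2.59 ± 0.46 at the edge (adjusted p = 0.00126) and differed by -1.13 ± 0.68 in the center (adjusted p = 0.212). At the edge OSM passed the filter through day 5, so that fall adds no support.

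OSMR, the receptor chain that pairs with gp130 to bind OSM, was most abundant in the center just after wounding. The 6 day 0 samples held 19.6 to 27.4 CPM. On day 1 the center held 141, 165 and 192 CPM (lowest, median, highest) and the edge 50.9, 62.3 and 90.6 CPM, and on day 2 the center held 91.0, 132 and 189 CPM and the edge 36.8, 55.6 and 82.3 CPM. On both days the 3 sets were fully separate, with day 0 lowest, the edge between and the center highest. As tested by edgeR, the center exceeded day 0 on day 1 by 2.69 ± 0.12 (adjusted p = 4.6e-08) and the edge by 1.45 ± 0.15 (adjusted p = 1.6e-05). The edge was lower than the center by -1.27 ± 0.16 on day 1 (adjusted p = 0.000165) and by -1.20 ± 0.17 on day 2 (adjusted p = 0.000143), and both calls held in every other setting tried. From day 3 on no location difference passed, other than that of day 9 with the wound as a block (-0.54 ± 0.11, adjusted p = 0.00511). The closest was day 3 without the libraries that stood apart, at -0.70 ± 0.27 (adjusted p = 0.0965). OSMR fell in the center from day 1 to day 5 by 0.84 ± 0.21 on the log2 scale (adjusted p = 0.0102) and from day 2 to day 6 by 0.84 ± 0.23 (adjusted p = 0.0227), the second lost without replicate 2, 3 or 4 (adjusted p up to 0.0798). It passed against day 0 in the center on all 14 days, down to 0.64 ± 0.17 on day 21 (adjusted p = 0.0108), when its 3 samples (23.8, 31.7 and 39.0 CPM) overlapped with day 0. That last call was lost without replicate 1 (adjusted p = 0.106) and with the animal as a block (adjusted p = 0.0722).

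IL6ST, the gene of gp130, changed over a small range and over few days. Day 0 skin held 115 to 198 CPM with a median of 144.1 CPM. In the center the lowest, median and highest samples were 313, 368 and 437 CPM on day 1 and 260.1, 364 and 491.5 CPM on day 2, and at the edge 145, 173.5 and 215 CPM and 174.5, 199.9 and 241 CPM. Center samples lay above all edge and day 0 samples on both days, and edge samples overlapped with day 0. With edgeR the center exceeded day 0 by 1.12 ± 0.16 on day 1 (adjusted p = 5.6e-05) and by 1.17 ± 0.17 on day 2 (adjusted p = 5.5e-05), and the edge differed by 0.17 ± 0.15 and 0.34 ± 0.14 without passing (adjusted p = 0.352 and 0.0578). The edge was lower than the center by -0.97 ± 0.12 on day 1 (adjusted p = 0.000164) and by -0.86 ± 0.12 on day 2 (adjusted p = 0.000119), and both calls held in every setting. The center level passed against day 0 on days 1 to 4 and on no later day. At the edge only days 3 and 4 passed, with 0.79 ± 0.19 (adjusted p = 0.00484) and 0.55 ± 0.16 (adjusted p = 0.0129). With the animal as a block day 4 did not pass in the center (adjusted p = 0.06) or at the edge (adjusted p = 0.135), the latter also lost without replicate 3 or 6. In the same animals the center fell from day 2 to day 6 by 0.81 ± 0.19 (adjusted p = 0.011) in every fit with a replicate left out, and from day 1 to day 5 by 0.67 ± 0.18 (adjusted p = 0.0143), a call lost without replicate 1 or 3 (adjusted p up to 0.0561).

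SOCS3, the feedback inhibitor and a direct STAT3 target, had the most location calls by edgeR without a block, 8 against 6 for IL11. With the wound as a block IL11 had 9 and SOCS3 8. Calls that held in every setting numbered 3 for IL11 and 2 for SOCS3. Day 0 skin held 11.3 to 31.3 CPM with a median of 16.2 CPM. The center held 157, 449 and 918 CPM on day 1 (lowest, median, highest), 238, 435 and 931 CPM on day 5, 226, 433 and 653 CPM on day 7, and 150.3, 239.8 and 1111 CPM on day 9. The edge held 63.0, 201 and 383 CPM on day 1, 97.7, 185 and 253 CPM on day 5, 56.6, 149.9 and 375 CPM on day 7, and 23.4, 53.8 and 237 CPM on day 9. Center samples lay above all day 0 samples from day 1 to day 19, whereas edge samples did so from day 1 to day 7 and overlapped with day 0 afterwards. By edgeR the center exceeded day 0 by 4.61 ± 0.41 on day 1 (adjusted p = 2.1e-06), 4.80 ± 0.59 on day 9 (adjusted p = 1.2e-05), 2.95 ± 0.31 on day 15 (adjusted p = 5.9e-05) and 1.01 ± 0.33 on day 21 (adjusted p = 0.0319). The day 21 call was lost without replicate 1 (0.47, adjusted p = 0.323), without replicate 2, 4, 5 or 6 (adjusted p 0.0541 to 0.0608) and with the animal as a block (adjusted p = 0.28). The edge exceeded day 0 by 3.43 ± 0.37 on day 1 (adjusted p = 2.3e-05) and by 2.55 ± 0.56 on day 9 (adjusted p = 0.00285), and did not pass on days 15, 19 and 21.

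The edge level of SOCS3 was below that of the center by the same test on days 1, 2, 5, 7, 9, 11, 13 and 15. The differences of day 5 (-1.47 ± 0.31, adjusted p = 0.00238) and day 11 (-2.0 ± 0.47, adjusted p = 0.00487) held with each replicate number left out by edgeR. On day 15 the center samples held 115, 81.4 and 192 CPM and the edge samples 22.3, 25.5 and 19.4 CPM, with no overlap and a difference of -2.60 ± 0.32 (adjusted p = 0.0165), which without replicate 2 was -2.89 and missed the threshold (adjusted p = 0.159). The other 5 calls had differences between -2.25 and -1.19. They were lost on day 1 without replicate 1, 2, 3 or 6 (adjusted p up to 0.143), on day 2 without replicate 3 (0.0596), on day 7 without any but replicate 2 (up to 0.118), on day 9 without replicate 1, 2 or 6 (up to 0.0701) and on day 13 without replicate 3 or 5 (up to 0.111). The sign was the same in each of these fits. With the wound as a block day 4 passed too (-0.81 ± 0.18, adjusted p = 0.0063), and day 13 did not (-1.36 ± 0.45, adjusted p = 0.0509). In single wounds the center was higher in all wounds of every day but days 6 and 19, with 4 of 6 and 2 of 3. From day 5 to day 11 SOCS3 fell at the edge by 1.41 ± 0.31 (adjusted p = 0.00436) and differed in the center by -0.91 ± 0.44 (adjusted p = 0.126).

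STAT3, the transcription factor of the pathway, moved over a small range, with the smallest median spread between replicates of the 9 rows. On the log2(1 + CPM) scale its highest center mean lay 1.24 above day 0, against 1.34 for IL6ST. The highest edge means lay 0.929 above day 0 for STAT3 and 0.887 for IL6ST. The long row held 152 to 180.5 CPM in day 0 skin. The center held 278, 407 and 473 CPM on day 1 and 297, 352 and 408 CPM on day 2 (lowest, median, highest), and the edge 244, 278 and 326 CPM and 224, 274 and 311 CPM. Both locations lay above day 0 on these days. Edge and center overlapped, on day 1 through replicate 5 of the center alone, since the other 5 center samples held 403 CPM or more. In the edgeR fit the center exceeded day 0 by 1.09 ± 0.13 on day 1 (adjusted p = 1.4e-05) and the edge by 0.66 ± 0.08 (adjusted p = 6.3e-05). The edge was lower than the center by -0.45 ± 0.13 on day 1 (adjusted p = 0.0108), lost without replicate 2 (-0.37, adjusted p = 0.0522), and by -0.38 ± 0.14 on day 2 (adjusted p = 0.0436), lost with any replicate number left out (adjusted p 0.052 to 0.105). From day 4 to day 7 the location differences of STAT3 lay between -0.03 and 0.05, with SE of 0.09 to 0.11. With the wound as a block day 11 passed in the other direction, at 0.25 ± 0.08 (adjusted p = 0.0373). Both locations were above day 0 by the test on days 1 to 13 and on day 16, as were the center of day 15 and the edge of day 19. The center of day 13 passed (0.28 ± 0.11, adjusted p = 0.0366) only with all replicates or without replicate 1, and not with the animal as a block (adjusted p = 0.244). On day 21 the 3 center samples (118, 136 and 147 CPM) lay below all day 0 samples at a difference of -0.15 ± 0.11 that did not pass.

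The short STAT3 row repeated this course at lower counts. It held 12.5 to 16.2 CPM on day 0, 28.3, 40.6 and 49.0 CPM in the center on day 1 and 21.8, 25.7 and 31.6 CPM at the edge. Over the 29 states its mean level followed the long row with r = 0.973. The location difference of day 1 was -0.55 ± 0.14 (adjusted p = 0.0058 by edgeR) and held with each replicate number left out. On day 13 the row was higher at the edge by 0.52 ± 0.18 (adjusted p = 0.0442), a call lost without any replicate but the first (adjusted p up to 0.129) and under 4 other settings, while the long row differed by 0.26 ± 0.12 (adjusted p = 0.115).

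Later and earlier days were also compared within the same 3 animals, by location, with 28 of 72 tests called by edgeR. From day 1 to day 5 in the center IL11 was higher (15.5% of all genes were) and 4 rows were lower (15.0%), which were OSMR, IL6ST and both STAT3 rows. From day 2 to day 6 in the center IL11 was again higher (10.1%), and OSMR, IL6ST and STAT3 were the 3 rows that were lower (7.99%). At the edge the first step raised 2 rows (9.75%), IL11 and LIF, and the second 1 row (9.07%), IL11. Between day 5 and day 11 the edge had 6 rows lower (16.8%) and the center 3 (17.3%), and between day 6 and day 13 the edge had 4 (6.47%) and the center 3 (7.67%). The edge rows that fell from day 5 to day 11 were the 4 cytokines, OSMR and SOCS3, and no STAT3 row passed there. Of the 28 calls 14 held with each replicate number left out, among them the 4 rises of IL11, the fall of LIF in the center at both steps and that of IL6, IL11, LIF, OSM and SOCS3 at the edge from day 5 to day 11. The rises of IL11 from the day 1 edge and from both locations of day 2 add no support, since IL11 passed the filter through the later day there. The falls of LIF in the center from day 5 to day 11 and of OSM at the edge at both steps add none either. Both genes passed the filter through the earlier day there. Those of IL6 and STAT3 in the center from day 5 to day 11, of IL6ST in the center from day 6 to day 13 and of OSM at the edge from day 6 to day 13 were each lost in 5 or 6 of the 6 fits with a replicate left out.

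The members fell into unlike time courses, which their state means describe. Over the 29 states SOCS3 followed OSM (r = 0.945) and IL6 (r = 0.927) most closely, OSMR followed STAT3 (r = 0.934), and IL11 and IL6ST had an r of 0.153. Many states share animals, as do edge and center of a day, so these values are descriptions. Within states, taking each wound sample as its deviation from its state mean, IL6 and LIF deviated together (r = 0.802), as did OSM and SOCS3 (r = 0.784) and IL11 and LIF (r = 0.752). IL6ST and SOCS3 did not (r = -0.0834). Leaving out the libraries that stood apart left these at 0.797, 0.775, 0.743 and -0.0886 over the remaining 137 samples. Both samples of a wound enter these values and are not independent.

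Among 14583 genes with a symbol and at least 1 CPM in a state, those whose state means were most like a member were named by Pearson's r over the 29 states. For SOCS3 these were BCL3 (0.977), an atypical IκB protein, B4GALT5 (0.972) and the glucose transporter gene SLC2A3 (0.972). SLC2A3 also led for OSM (0.975), with GPR84 (0.975), a receptor gene of myeloid cells, and MCEMP1 (0.973). IL11 was closest to STAC (0.969), DYDC2 (0.964) and the nuclear receptor gene NR4A1 (0.959). For IL6 these were RBM18, IFITM3 and SPRY4, each at 0.949. LIF was closest to SRPRA (0.958), SERP1 (0.951) and WDR89 (0.95), OSMR to NPTX1 (0.960), PTGIR (0.960) and HILPDA (0.958), and IL6ST to NUP205 (0.957), the pentraxin gene PTX3 (0.956) and PTPN4 (0.953). The long STAT3 row was closest to the short one, to IRAK1 (0.951) and to LETM1 (0.935), and the short row to PITPNA (0.939) and EPSTI1 (0.922) after the long one.

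Other cytokines of the family were measured for 6 of 7 listed symbols. On day 1 in the center 5 of them were above day 0 and 1 below by edgeR (33% and 32.1% of all genes), and at the edge 3 of 5 tested were above (26.4%). CLCF1, a ligand of the CNTF receptor complex, was above day 0 in the center on all 14 days, by 3.35 ± 0.40 on day 1 (adjusted p = 1.7e-05) and 4.41 ± 0.47 on day 16 (adjusted p = 6.2e-05), and lower at the edge than in the center on 3 days. EBI3, a subunit of interleukin-27, was above day 0 in the center on 13 days and lower at the edge on 7, by -1.65 ± 0.31 on day 11 (adjusted p = 0.00134).

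Of the other receptors, all 6 were measured, and on day 2 the edge was lower for 5 of them and higher for 1, where 17.7% and 17.8% of all genes were. Over the 14 days the calls went both ways. IL27RA, IL11RA and IL6R were lower at the edge on 8, 4 and 3 days and higher on none. IL31RA was higher there on 4 days and lower on none, and LIFR and CNTFR were each higher on 4 and lower on 2. IL27RA was above day 0 at both locations on all 14 days, by 2.49 ± 0.19 in the center on day 9 (adjusted p = 1.5e-07). IL31RA, the receptor chain that pairs with OSMR for interleukin-31, was below day 0 at both locations on all 14 days, by -3.50 ± 0.49 in the center on day 1 (adjusted p = 5.9e-05), where OSMR was raised. LIFR, which overlaps OSMR on the other strand, was above day 0 in the center by 0.83 ± 0.13 on day 1 (adjusted p = 0.000142) and below it by -2.20 ± 0.19 on day 16 (adjusted p = 1.8e-05). Its edge level was below that of the center on day 1 (-1.29 ± 0.17, adjusted p = 0.000213) and above it on day 15 (1.81 ± 0.15, adjusted p = 0.0165).

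The kinases and regulators were found for all 12 listed symbols, in 13 rows. On day 1 in the center 10 rows were above day 0 and 2 below (33% and 32.1% of all genes), with a median of 1.02 on the log2 scale. CISH, a SOCS family member, was above day 0 in the center on day 1 by 2.58 ± 0.27 (adjusted p = 6.6e-06 by edgeR). PTPN11 had 2 rows, with 867710 and 4175 counts over all samples. The row with fewer counts had more calls, being higher at the edge on 9 days and below day 0 in the center on 12, by -3.34 ± 0.49 on day 7 (adjusted p = 3.4e-05). The other row was above day 0 in the center on 3 days, so no direction is given for the gene.

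Genes known as STAT3 targets, SOCS3 left aside, were measured for all 16 listed symbols. In the center 11 were above and 1 below day 0 on day 1, with a median of 1.2, when 33% of all genes were above and 32.1% below. On day 21 there were 6 above and 5 below (21.0% and 20.7% of all genes), with a median of 0.05. At the edge 11 were above and 2 below on day 1 (26.4% and 23.9%), with a median of 0.73. Between edge and center 1 was higher and 6 lower at the edge on day 1 (24.0% and 22.6% of all genes), 1 and 8 on day 5 (20.3% and 16.8%), 2 and 9 on day 7 (20.4% and 17.1%), 1 and 9 on day 15 (7.55% and 9.81%), and none passed on days 3, 6, 19 and 21. ICAM1, an adhesion molecule for leukocytes, was above day 0 at both locations on all 14 days, by 4.06 ± 0.33 in the center on day 9 (adjusted p = 3.2e-07 by edgeR), and lower at the edge than in the center on 10. TIMP1, an inhibitor of matrix metalloproteinases, was above day 0 on all 14 days too, by 4.68 ± 0.44 in the center (adjusted p = 2.7e-06) and 4.25 ± 0.17 at the edge (adjusted p = 1.3e-08) on day 1. IL4R was lower at the edge on 9 days, by -2.07 ± 0.19 on day 15 (adjusted p = 0.0165). Other targets went the other way. BCL2L1 was below day 0 at both locations on all 14 days and BCL6 on 11, and both were higher at the edge, on 4 and 2 days. MYC and PIM1 were below day 0 in the center on 8 and 6 days, and FOS at the edge on 11. In the center 11 of the 16 were above day 0 on at least 1 day and 7 below. These are bulk levels, and several of these genes also respond to other factors.

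Of the 6 acute phase genes, which the liver makes under interleukin-6, 4 were found. HP was above day 0 in the center by 1.76 ± 0.50 on day 1 (adjusted p = 0.00787 by edgeR) and passed in 8 of 42 comparisons. LBP was higher at the edge on 6 days, by 5.29 ± 1.30 on day 11 (adjusted p = 0.00648), and CRP passed in 1 comparison. LBP was tested in 29 of the 42 comparisons and CRP in 6, since both missed the filter on low counts in the others. Which samples carried them past the filter is not given here, so these calls add no support.

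Markers of the cell types differed between edge and center alongside the members. All 10 keratinocyte genes were higher at the edge, where the list had a median level of 10.5 (2.41 to 11.2) against 3.14 (0.652 to 10.2) in the center and 10.8 in day 0 skin, as means of log2(1 + CPM). The center medians of the list were 1.85 to 3.55 from day 1 to day 11 and 9.87 on day 21. All 9 macrophage genes were higher in the center, at 7.42 (5.98 to 8.46) against 6.52 (4.67 to 8.03) at the edge and 4.93 on day 0. All 8 endothelial genes were higher in the center as well, at 6.82 (6.06 to 7.62) against 6.12 (4.23 to 7.23). Of 7 neutrophil genes found 4 were higher in the center, the list being at 5.14 there (2.06 to 6.87) and 5.86 at the edge (2.59 to 7.21), and S100A8, S100A9 and S100A12 on it are also made by keratinocytes. CSF3R, a neutrophil receptor gene, had medians of 157.5 CPM in the center and 86.9 CPM at the edge on day 1 and 123 and 10.8 CPM on day 11. T cell genes were higher in the center for 5 of 6, at 2.96 (2.04 to 5.26) against 2.49 (1.37 to 3.84), with CD3G at 0 in most samples. Fibroblast genes were higher in the center for 9 of 10, at 10.8 (9.04 to 11.6) against 10.6 (7.93 to 11.6). Hair follicle genes were higher at the edge for all 5 found, with TCHH at 0 in most samples, and erythrocyte genes higher in the center for all 3.

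Over the 29 states SOCS3, OSM and IL6 correlated with the macrophage list (r = 0.862, 0.820 and 0.815) and STAT3 with the fibroblast list at r = -0.753. IL6, IL11 and SOCS3 also followed the endothelial list (r = 0.787, 0.748 and 0.712) and ran against the keratinocyte list (r = -0.720, -0.737 and -0.734). IL6ST, OSMR and STAT3, whose center means peaked on day 1 or 2, followed the adipocyte list (r = 0.872, 0.753 and 0.74). IL6, whose center mean was highest on day 1 as well, and SOCS3 had lower values with that list (r = 0.530 and 0.438). Fat and muscle also differed between samples. The adipocyte gene ADIPOQ had a median of 4695 CPM in the day 1 center against 79.0 CPM at the edge and 273 CPM on day 0, and 5 of the 7 genes of its list were found. The muscle list reached 12.4 in the center and 11.8 at the edge in single samples against medians of 0.865 and 0.789, with TNNT3 at 0 in most samples. The part of these cell types in the differences of the members was not tested.

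**Figure D5:**
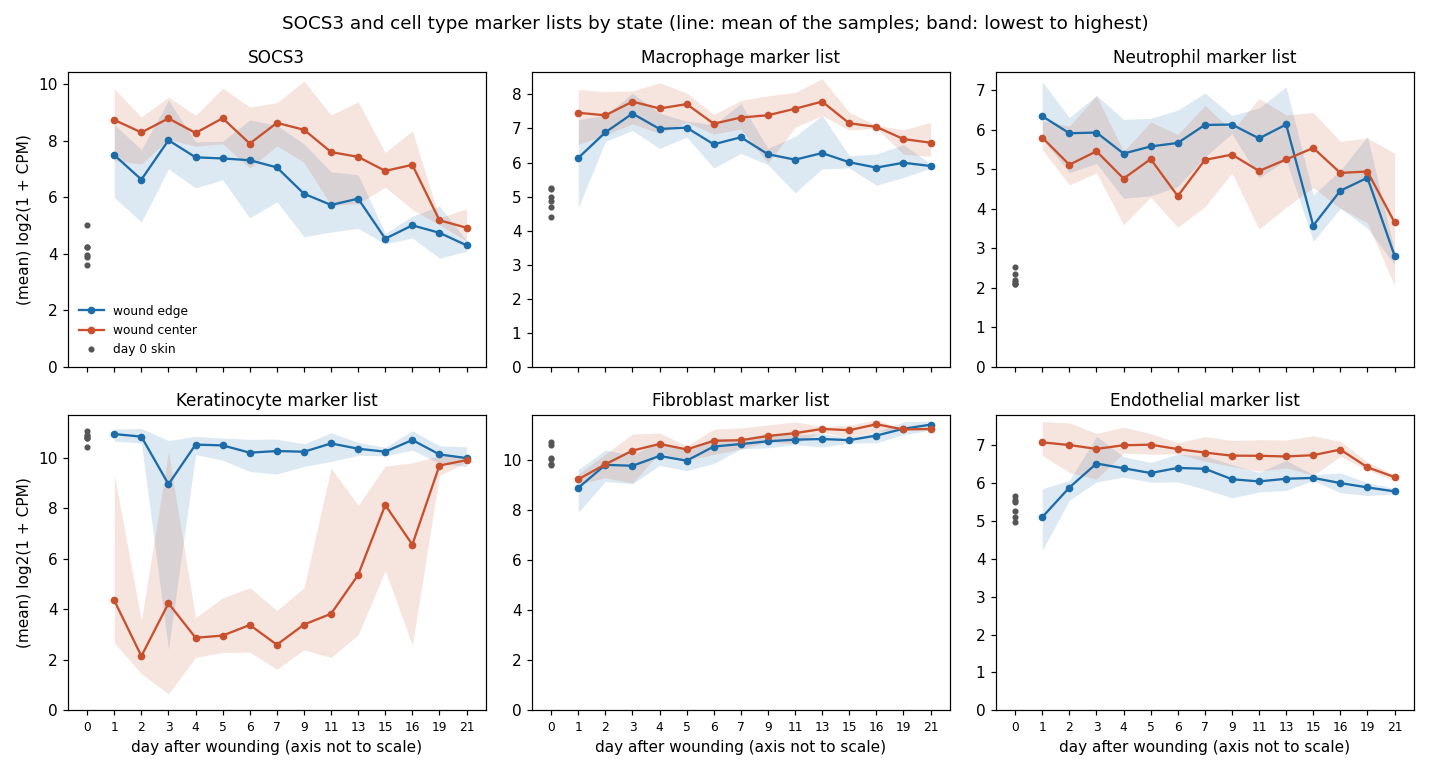
SOCS3 as log2(1 + CPM) and 5 cell type lists as the mean of log2(1 + CPM) of their genes, against the day after wounding, with lines through the means of each location, bands from the lowest to the highest sample and points for day 0 skin. Keratinocyte genes stayed high at the edge except in 1 library of day 3, and in the center their median rose from 2.69 on day 11 to 9.87 on day 21, while macrophage and endothelial genes lay higher in the center on all 14 days.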

How the data were processed

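Gene expression was measured by paired-end sequencing of poly-A RNA in 150 samples. Those of day 0 were the whole excised skin and the others biopsies. The authors deposited whole-number read counts per gene for each sample, with gene positions and lengths, and FPKM values of the same genes; aligner, counter, their settings and the name of the assembly are not given in the sources used here. From the counts, CPM were computed over all genes, and state means used log2(CPM + 1). FPKM served only to compare levels between genes.

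Tests used edgeR 4.0.16 (quasi-likelihood test, TMM scaling, a filter for low counts by filterByExpr, set to 10 per sample and 15 in total, R 4.3.3) on the deposited counts, with Benjamini-Hochberg adjustment over all tested genes and a threshold of 0.05. Samples of the 2 groups compared entered each fit; the mean over all wounds and the comparison between days used the samples of all 72 wounds. Alternatives were DESeq2 1.42.0, other scaling, no filter, a replicate block (the wound for edge against center, the animal otherwise), counts summed per animal, 1 fit of all 150 samples, and leaving out replicates or the libraries that stood apart. The scripts were tested on simulated data. State means, correlations and intervals were made with scipy 1.17.1, pandas 2.3.3 and numpy 2.4.6 in Python 3.11.15.

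Edge and center samples with the same number come from the same wound and animal, and their deviations from the state means correlated positively in 64 of 72 wounds (mean r = 0.275). On the days compared with each other, same-numbered samples come from the same animal (mean r = 0.0966, positive in 8 of 8 comparisons). No 2 of 339 replicate pairs were alike within sampling noise. P-values treat wounds of an animal as separate samples and so may be too small.

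The members and all gene lists were chosen with earlier results of these data known. For each member the 3 genes most alike over the states were named, and for each pathway list the 3 rows with the most calls. Some of these rows are not reported here. Symbols came from the deposited gene names, or else from the deposited protein match, as for OSMR and STAT3.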

Additional observations from a re-analysis of the deposited data

Results flagged for a closer look

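Among groups of 6 samples, the gap of the highest or lowest sample to its neighbor was large against the whole range in 11 of 189 groups, where 9.45 are expected by chance, 1 in 20. For IL6 the ratio of gap to range was 0.650 in day 0 skin (replicate 2 high), 0.679 at the day 6 edge (replicate 5 low), 0.789 at the day 13 edge (replicate 6 high) and 0.827 in the day 13 center (replicate 3 high). For LIF it was 0.772 at the day 7 edge (replicate 2 high), for OSM 0.645 in the day 3 center (replicate 6 low) and for OSMR 0.674 in the day 11 center (replicate 1 low, a library that stood apart). For STAT3 it was 0.699 in the day 1 center (replicate 5 low, the library whose KRT10 went against its label) and 0.908 in the day 6 center (replicate 5 low, a library that stood apart). For the short STAT3 row it was 0.640 in the day 4 center (replicate 5 high) and 0.677 at the day 13 edge (replicate 1 low).

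The edge minus center difference varied between days, by an F test of edgeR, for OSMR (adjusted p = 0.00141), IL6ST (adjusted p = 1.5e-05), STAT3 (adjusted p = 0.00167) and its short row (adjusted p = 0.00594).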

How the results depend on the processing

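With the wound as a replicate block 45 tests of edge against center passed instead of 29, and leaving out single replicate numbers gave 19 to 29, the fewest without replicate 3. Of the comparisons of later with earlier days, 28 in full, 18 to 27 passed with a replicate number left out. Between days 2 to 5 rows varied instead of 4, and 6 with the replicate block. The other counts stayed within 1.5 times: against day 0, 101 in the center and 85 at the edge became 84 and 71 with the replicate block. DESeq2 called 41 edge against center differences. With counts summed per animal 22 of the 29 edge against center calls and 19 of the 28 later against earlier calls held. Chosen after seeing the data, leaving out single libraries moved the IL6 ratio of the day 1 center to day 0 from 233 to between 124 and 437. No called value changed direction under any alternative, and of 2786 recomputed values of the 200 comparisons without a call 122 had the other sign. Called in every setting were 12 of 29 edge against center differences, 80 of 101 center and 63 of 85 edge differences from day 0, 14 of 28 later against earlier and 6 of 6 over all wounds. The level of IL11 in the day 6 center minus day 0 was 7.99 on the log2(1 + CPM) scale and 8.69 with a pseudocount of 0.5, and that of OSMR in the day 1 center 2.80 and, on the log2(1 + FPKM) scale, 2.37. IL6, IL11 and OSM in day 0 skin lay near the limit of 3 counts, and the days with 3 samples per location rest on few degrees of freedom. The cause of these changes was not tested.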
